A study of Ovis aries with 24 samples.

Results

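The ductus arteriosus was compared with the aorta in preterm fetal sheep, using the 4 arrays of preterm ductus and the 4 arrays of preterm aorta among the 24 arrays of the study. Groups were taken from the sample titles, which give 100 days, while the source labels give 97 days of gestation against a full term of 145 days. The other 16 arrays held both vessels from near-term fetuses (136 days in the design text, 140 in the titles) and from newborn lambs of 12 hours, and they are used here only to set the preterm values beside the later ones. The labels name no strain, genotype or treatment, and all animals were untreated as far as they say. Each group held 4 animals. Whether same-numbered pieces of the vessels were taken from 1 animal is not given in the labels. The aortic piece is called ascending aorta in the sample characteristics and a segment beside the ductus in the protocol, so its exact position is not settled. Total RNA of each piece was labelled with Cy3 and hybridised to a single-colour Agilent sheep array, 1 sample per array.

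In the fetus the lungs do not yet breathe, and the ductus arteriosus, which joins the pulmonary artery to the aorta, lets blood bypass them. Prostaglandin E2, made by cyclooxygenases and cleared by the lungs after birth, keeps it open in the fetus, and it constricts when oxygen rises and prostaglandin falls, with endothelin 1 as a known constrictor. Its smooth muscle derives from the neural crest and the outflow region, as that of the ascending aorta largely does, and it prepares for closure long before birth, while the aorta beside it stays an elastic artery.

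A value here is the log2 of the processed signal minus the 75th percentile of its array, so that 0 is the brightness of the probe at the 75th percentile and 1 unit is a doubling. A difference is the preterm ductus mean minus the preterm aorta mean on that scale, with the standard error (SE) of the fit. Means of arrays carry the standard deviation (SD, n = 4 in each vessel). A probe passed where its adjusted p in limma (Benjamini-Hochberg over 13997 tested probes) was under 0.05. Signal levels of different probes are not comparable with each other.

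The 8 preterm arrays shared 1 slide, with the ductus in its column 1 and the aorta in its column 2, so vessel and slide column cannot be told apart. Probes well above background made up 71.4% to 87.1% of the spots of an array. The 75th percentile, which the scaling removes, was 850 to 1060 on the ductus arrays and 548 to 759 on the aorta arrays. The scanner software's detection limit for spiked control RNA, a measure of array quality, was above 1.5 on ductus replicates 1 and 4 and on aorta replicates 2, 3 and 4, and 0.420 to 0.884 on the others. The first principal component of these arrays held 67.0% of the variance and set those 5 arrays (27.2 to 71.1) apart from the other 3 (−120 to −50.2). Array correlations across probes ran from 0.922 to 0.985 within a vessel and from 0.917 to 0.971 between the vessels.

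Of 13997 probes, 99 passed (0.707%). Of these, 72 were higher in the ductus (0.514% of the probes tested) and 27 were lower (0.193%). The differences of these probes ran from −2.45 to 6.25, with a median of 1.39 among those higher and −1.28 among those lower, and 18 were above 2 while 3 were below −2. The 4 ductus and the 4 aorta arrays did not overlap in 96 of the 99 probes. Over all tested probes the share without overlap was 8.41%, made up of 3.17% with the ductus above and 5.24% with it below. Over all tested probes the median difference was −0.20, and −0.02 with quantile normalisation, so differences are to be read against that shift. The balance of the directions depended on the processing. It was 80 higher and 25 lower with quantile normalisation and 51 and 7 with median centring. It turned to 284 higher and 1862 lower with array weights. No counts are given for a fit of the arrays with a spike-in limit under 1.5, where aorta replicate 1 was the only preterm aorta array. Without aorta replicate 1, 2 or 3 the calls numbered 52, 53 and 57, and without ductus replicate 1 or 2 they numbered 58 and 64.

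**Figure D1:**
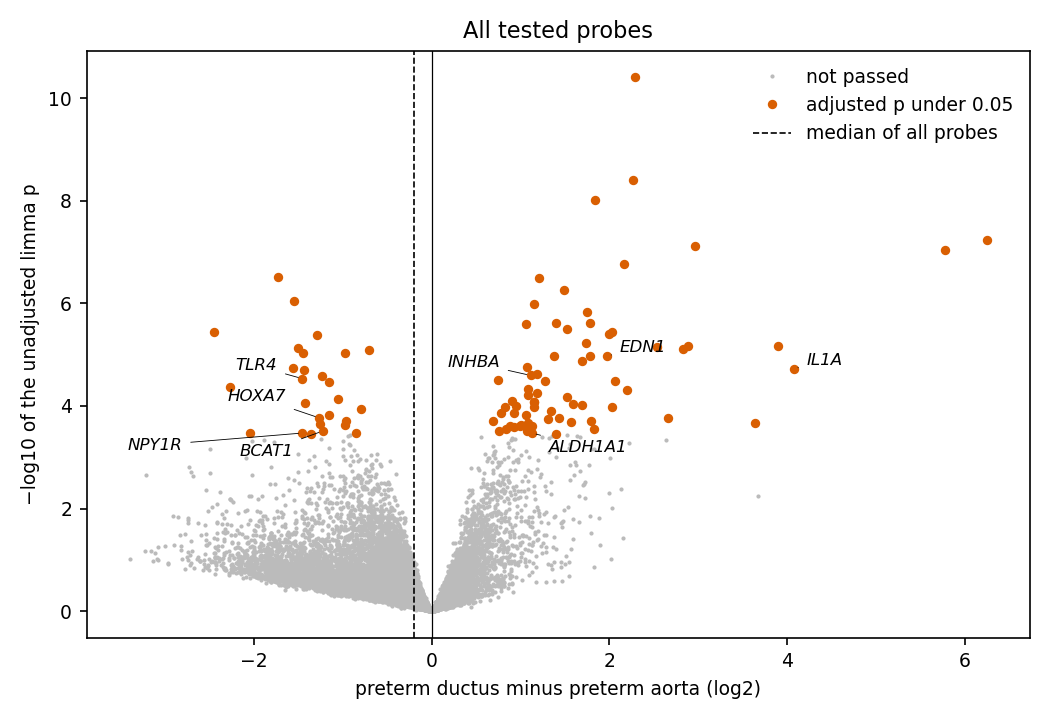
Each dot is 1 of 13997 tested probes, with the preterm ductus minus preterm aorta difference (log2) on the x axis and −log10 of the unadjusted limma p on the y axis. Orange marks the 99 probes that passed, the dashed line is the median of all probes at −0.20, and the 8 labelled genes are those with a symbol that passed.

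Among the 768 measured genes with a symbol, 8 passed (1.04%), 4 in each direction. That split was 7 higher and 1 lower with quantile normalisation, 3 and 0 with normexp background correction, and 4 and 2 with median centring. Higher in the preterm ductus were the vasoconstrictor gene EDN1, the cytokine gene IL1A, the activin subunit gene INHBA and the retinoid enzyme gene ALDH1A1. Lower were the receptor genes TLR4 and NPY1R, the homeobox gene HOXA7 and the branched-chain aminotransferase gene BCAT1. None of the 8 showed an overlap between ductus and aorta arrays. Most called probes, 88 of 99, carry no symbol here, so these genes are a small share of what differed.

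EDN1 encodes endothelin 1, a peptide that contracts vascular smooth muscle. Its values in ductus replicates 1 to 4 were −1.26, −1.31, −1.90 and −1.68, and in aorta replicates 1 to 4 they were −3.51, −3.19, −3.87 and −3.50. The lowest ductus array thus stayed above the highest aorta array by more than either group's own range. The difference was 1.98 ± 0.34 (SE), or 3.94-fold (limma, adjusted p = 0.00456). It was 2.05 among the arrays with a spike-in limit above 1.5 and 1.90 among the others. The level in the ductus was −1.86 ± 0.44 (SD) near term and −1.64 ± 0.38 at birth, and in the aorta −3.39 ± 0.77 and −3.38 ± 0.56.

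IL1A encodes interleukin 1 alpha, an inflammatory cytokine and alarm signal that cells can hold in store. It read −1.18, −1.57, −0.94 and −1.51 in the ductus and −7.21, −4.99, −4.58 and −4.75 in the aorta. The 4 ductus arrays lay within 1 unit of each other, while aorta replicate 1, which was not well above background, lay far below the other aorta arrays. The difference was 4.08 ± 0.73 (limma, adjusted p = 0.00713), and 3.43 among the arrays with a spike-in limit above 1.5. A further IL1A probe passed too (3.64, limma, adjusted p = 0.0387), with 1 aorta array well above background, so that the size of its difference is set against background. IL1B, which encodes the related interleukin 1 beta and was singled out after its values were seen, lay on the other side without overlap, at −2.93 ± 0.39 in the ductus and −2.33 ± 0.16 in the aorta, and did not pass (difference −0.60 ± 0.47, limma, adjusted p = 0.599).

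INHBA encodes the beta A subunit that forms activin A, a secreted ligand of the TGF-beta family. Its values were 4.90, 4.75, 4.63 and 4.43 in the ductus and 4.05, 3.78, 3.04 and 3.38 in the aorta. Every ductus array was brighter than every aorta array, and the aorta arrays were the more spread. The difference was 1.12 ± 0.20 (limma, adjusted p = 0.00882), and the other INHBA probe passed too, at 1.19 (limma, adjusted p = 0.00854). The split by spike-in limit gave 1.27 and 0.64. At birth the vessels stood at 3.96 ± 0.08 and 3.93 ± 0.24, where the difference was 0.04 ± 0.20, and the change of the difference from preterm to newborn, 1.08, did not pass (limma, adjusted p = 0.11).

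ALDH1A1 encodes a retinaldehyde dehydrogenase, which makes retinoic acid. The ductus arrays read −0.98, −0.48, −0.56 and −1.10 and the aorta arrays −2.15, −2.15, −1.55 and −1.78. The gap between the vessels was narrower than for EDN1, and no array crossed it. The difference was 1.13 ± 0.26 (limma, adjusted p = 0.049), just inside the threshold. It was 0.79 and 1.64 in the arrays above and under the spike-in limit.

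TLR4 encodes the receptor for bacterial lipopolysaccharide. It read −4.43, −3.99, −3.90 and −3.53 in the ductus and −2.56, −2.25, −2.70 and −2.52 in the aorta, with all aorta arrays close together above the ductus. The difference was −1.46 ± 0.27 (limma, adjusted p = 0.00976), and −1.49 and −1.39 on either side of the spike-in limit. The other TLR4 probe differed by −1.67 without passing (limma, adjusted p = 0.197).

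NPY1R encodes a receptor for neuropeptide Y, a transmitter of sympathetic nerves that constricts vessels. Its values were −4.03, −3.60, −3.84 and −4.03 in the ductus and −2.64, −2.07, −2.44 and −2.54 in the aorta, a gap wider than the spread of either vessel. The difference was −1.45 ± 0.34 (limma, adjusted p = 0.049) and the other NPY1R probe passed as well, at −1.45 (limma, adjusted p = 0.00441). NPY itself, the ligand, read −2.43, 0.02, −2.20 and −1.17 in the ductus and −4.49, −1.70, −2.75 and −3.24 in the aorta. Its arrays overlapped, and the difference of 1.60 ± 0.72 did not pass (limma, adjusted p = 0.425).

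HOXA7 encodes a homeobox transcription factor that marks position along the body axis. The ductus arrays read −0.29, −0.69, −0.62 and −1.55 and the aorta arrays 0.28, 0.29, 0.80 and 0.55, without overlap. The difference was −1.26 ± 0.27 (limma, adjusted p = 0.0333), and the other HOXA7 probe differed by −1.04 without passing (limma, adjusted p = 0.182). BCAT1 encodes the cytosolic enzyme that transfers the amino group of leucine, isoleucine and valine. Its arrays read −4.65, −4.27, −4.47 and −4.95 in the ductus and −3.29, −3.08, −3.43 and −3.63 in the aorta, and the difference was −1.23 ± 0.28 (limma, adjusted p = 0.0468). The other BCAT1 probe differed by −0.76 without passing (limma, adjusted p = 0.393).

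These 8 calls were not equally firm. EDN1 and INHBA passed with any of the 8 preterm arrays left out, as did IL1A, TLR4 missed the threshold without ductus replicate 1, and HOXA7 with any of 7 arrays left out, while ALDH1A1, NPY1R and BCAT1 missed it with any array left out. With normexp background correction INHBA, TLR4, NPY1R, HOXA7, ALDH1A1 and BCAT1 did not pass, and the IL1A difference became 2.01. INHBA, TLR4, HOXA7 and ALDH1A1 missed the threshold with median centring, and these 4 and BCAT1 did in a fit of the 8 preterm arrays alone. TLR4, NPY1R and BCAT1 missed it with quantile normalisation. In a fit of the arrays of all stages with a spike-in limit above 1.5, 5 of them preterm, none of the 8 passed. Under that limit ductus replicates 2 and 3 stood against aorta replicate 1 alone, so no calls are given for that fit.

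**Figure D2:**
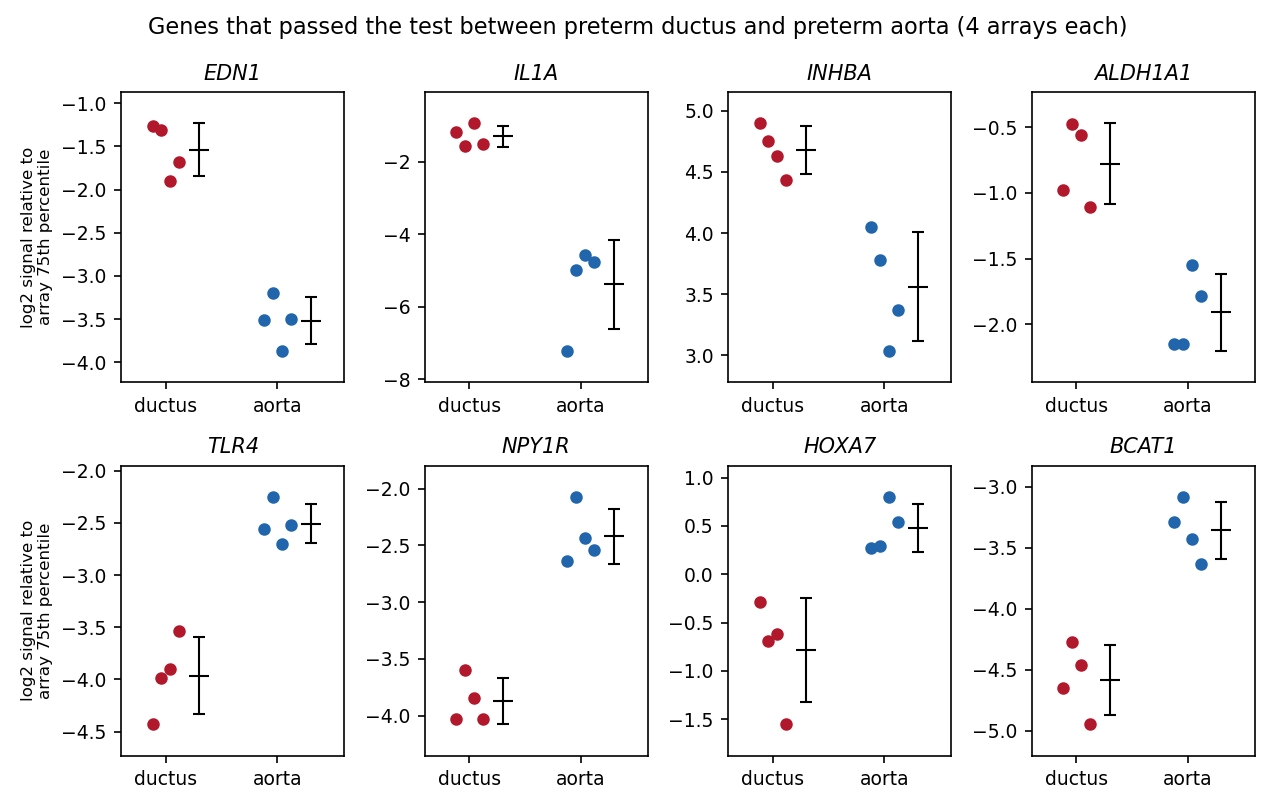
Values of the 8 genes with a symbol that passed, 1 panel per gene, with the log2 signal relative to the array's 75th percentile on the y axis. Each point is 1 array (red ductus, blue aorta, replicates 1 to 4 from left to right), the black bar is the mean with its SD, and the y axes differ between panels. No panel shows an overlap between the vessels, and aorta replicate 1 lies lowest for IL1A at −7.21.

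A panel of 32 genes had 18 measured members. In limma 3 of them passed as higher (EDN1, ALDH1A1 and INHBA) and 0 as lower, beside 1.04% of all genes with a symbol in either direction. The panel and the lists that follow were chosen with earlier results of these data known. Their counts are thus a description and no measure of enrichment. Over all 768 genes with a symbol 189 lay above 0 and 579 below, which is the background for the counts of signs given for the lists. With quantile normalisation 306 of the 768 lay above 0, and their median moved from −0.38 to −0.13. Signs and medians of the lists thus depended on the processing. MYH11, ACTA2, ELN and PTGIS were among those not measured under a symbol here. The arrays of the vessels overlapped for both endothelin receptor genes. EDNRA, the receptor on smooth muscle, read −2.35, −4.83, −3.27 and −1.61 in the ductus and −3.04, −1.67, −1.18 and −1.34 in the aorta, a spread of over 3 units within the ductus (difference −1.21 ± 0.87, limma, adjusted p = 0.581). EDNRB, found mainly on endothelium, read −4.02 to −4.67 in the ductus and −7.21 in aorta replicate 1 against −4.63 to −4.16 in the other aorta arrays. Its difference of 0.67 ± 0.50 (limma, adjusted p = 0.591) became −0.02 without aorta replicate 1. ECE1, which cuts the endothelin precursor, differed by −0.50 ± 0.26 (limma, adjusted p = 0.497).

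PTGS2 encodes the inducible cyclooxygenase, the enzyme behind prostaglandin made on demand. It read −1.95, −2.36, −1.81 and −1.40 in the ductus and −2.74, −3.07, −3.57 and −2.47 in the aorta, without overlap. The difference of 1.08 ± 0.30 did not pass (limma, adjusted p = 0.124), and the dimmer PTGS2 probe lay on the other side (−1.25, limma, adjusted p = 0.634). PTGS1, the constitutive cyclooxygenase, stood at 2.70 ± 0.39 and 2.51 ± 0.37, a difference of 0.19 ± 0.21 within the spread of either vessel. The prostaglandin E receptor gene PTGER4 was well above background on 3 of 4 arrays of each vessel and differed by −0.64 ± 1.16, and the transporter gene SLCO2A1, which takes up prostaglandin, stood at −2.40 ± 0.15 and −2.46 ± 0.45. Of 9 measured genes of prostanoid synthesis, reception and transport 0 passed in limma and 4 lay above 0. Their median difference was −0.50 beside −0.38 over all genes with a symbol. That median was 0.18 with quantile normalisation, with 6 above 0, and −0.06 with normexp background correction, with 3 above 0. At an SE of 1.16 a difference of 1 unit in PTGER4 was not detectable.

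The other measured genes of the panel did not pass. NOS3, the endothelial nitric oxide synthase, stood at −0.51 ± 0.22 in the ductus and −0.02 ± 0.24 in the aorta (difference −0.49 ± 0.35, limma, adjusted p = 0.573). The angiotensin receptor genes AGTR1 and AGTR2 differed by −0.02 ± 0.37 and 0.73 ± 0.56, with adjusted p in limma of 0.984 and 0.592. JAG1, a Notch ligand, differed by −0.49 ± 0.25 (limma, adjusted p = 0.481) and TGFB1 by 0.12 ± 0.20. VEGFA, the main endothelial growth factor gene, and HIF1A, an oxygen-sensing transcription factor gene, differed by 0.49 ± 0.72 and −0.96 ± 0.70. The outflow factor gene ISL1 differed by −0.91 ± 1.17, with ductus arrays from −7.32 to −3.06. TFAP2A, a neural crest factor whose relative TFAP2B is mutated in inherited patent ductus, was well above background on all 4 ductus arrays and on 0 of 4 aorta arrays. It read −4.16, −5.61, −4.77 and −4.23 in the ductus and −7.29, −6.47, −5.27 and −6.37 in the aorta, where ductus replicate 2 fell below aorta replicate 3. Set against the floor of the aorta arrays the ductus mean was at least 1.67-fold higher, a bound that holds no sampling error, and the fitted difference did not pass (limma, adjusted p = 0.203).

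Of 13 genes of endothelin and other vasoactive peptides 1 passed, EDN1, as higher, and their median difference was −0.15. That median was 0.24 with quantile normalisation and 0.01 with normexp background correction. GAL, which encodes the neuropeptide galanin, came next. It read −5.83, −3.97, −4.91 and −3.88 in the ductus and −7.44, −7.01, −7.10 and −7.62 in the aorta, with 3 of the 4 ductus arrays and 0 aorta arrays well above background. By the floor of the aorta arrays the ductus level was at least 1.75-fold higher, and the gene missed the threshold (limma, adjusted p = 0.0565). Of 10 vasoactive receptor genes 1 passed, NPY1R, as lower, 2 lay above 0, and the median was −0.69. That median was −0.06 with quantile normalisation and −0.03 with normexp background correction, with 4 above 0 in each.

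Among 26 cytokine, chemokine and receptor genes 1 passed, IL1A, as higher. The median of the list was −0.71, and −0.25 with quantile normalisation and −0.09 with normexp background correction. TNFRSF11B encodes osteoprotegerin, a secreted decoy receptor. It read 0.13, −0.55, 0.16 and −0.30 in the ductus and −0.82, −1.01, −1.44 and −1.34 in the aorta, without overlap, and its difference of 1.01 ± 0.26 missed the threshold (limma, adjusted p = 0.0877). IL15, a growth cytokine of lymphocytes, read −4.81, −4.81, −5.12 and −4.98 against −3.43, −3.40, −3.84 and −4.10, and all 3 further IL15 probes lay on the same side (difference −1.24 ± 0.39, limma, adjusted p = 0.185). CSF3, the granulocyte growth factor gene, was well above background on 0 ductus and 3 aorta arrays and was at least 1.98-fold lower in the ductus by its floor (limma, adjusted p = 0.414). Among 19 genes of innate recognition and complement 1 passed, TLR4, as lower, with a median of −0.36. The complement gene C3 stood at −0.62 ± 0.22 in the ductus and −1.47 ± 0.26 in the aorta without overlap and did not pass (0.84 ± 0.39, limma, adjusted p = 0.438).

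Activin, BMP and TGF-beta genes held 29 measured members. Of these INHBA alone passed (limma), and the median was −0.43. BMP4, a bone morphogenetic protein that patterns the outflow region, read 0.99, 1.09, 0.24 and 0.29 in the ductus and −0.44, 0.50, −1.38 and −1.03 in the aorta. Only aorta replicate 2 reached into the ductus range, and the difference of 1.24 ± 0.35 did not pass (limma, adjusted p = 0.134). BMPR1B, a receptor for such ligands, read −2.25, −2.87, −3.23 and −3.35 in the ductus and −1.07, −0.71, −1.58 and −1.29 in the aorta, without overlap (difference −1.76 ± 0.53, limma, adjusted p = 0.164). The ligand gene TGFB3 stood at −1.46 ± 0.52 and −0.64 ± 0.11, also without overlap, and the signal transducer SMAD4 at −1.52 ± 0.26 and −0.97 ± 0.32. The differences of −0.83 ± 0.29 and −0.55 ± 0.23 did not pass (limma, adjusted p = 0.258 and 0.376). The BMP4 and BMPR1B readings thus lay on opposite sides of 0, and their other probes lay on the same sides as these.

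HOX genes, which give cells their position along the body axis, had 5 measured members, and they did not lie on 1 side. HOXA7 passed as lower. HOXA4 read 0.19, 0.10, −0.16 and −0.17 in the ductus and −1.23, −0.82, −0.64 and −1.02 in the aorta, without overlap (difference 0.92 ± 0.28, limma, adjusted p = 0.174). HOXC6 read −0.78, −0.52, −0.92 and −1.98 against 0.02, 0.63, 0.41 and 0.86, also without overlap and in the opposite direction (−1.53 ± 0.59, limma, adjusted p = 0.32). HOXA5 differed by 0.52 ± 0.33 (limma, adjusted p = 0.544). HOXC9, well above background on 0 ductus arrays and on 3 of 4 aorta arrays, was at least 2.46-fold lower in the ductus by its floor (limma, adjusted p = 0.402). Among 6 genes of neural crest and outflow patterning 0 passed in limma, with a median of 0.15. SNAI2, a neural crest transcription factor, stood at −0.10 ± 0.21 and −0.60 ± 0.27 (0.51 ± 0.20, limma, adjusted p = 0.343), and the guidance receptor gene NRP1 differed by 0.46 ± 0.32.

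Among 9 genes of retinoid and glucocorticoid handling ALDH1A1 passed as higher and the median was −0.47. That median was 0.15 with quantile normalisation and −0.13 with normexp background correction. HSD11B1, which turns cortisone into cortisol, differed by 0.93 ± 0.40 with overlap of the arrays (limma, adjusted p = 0.395). Among 12 genes of amino acid and lipid metabolism BCAT1 passed as lower. FASN, the fatty acid synthase gene, was well above background on 1 of 8 arrays, an aorta array, and did not pass (limma, adjusted p = 0.447). With so little signal above background no fold is given for it.

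Of 7 smooth muscle contractile and cytoskeletal genes 0 passed in limma, all 7 were well above background on all 8 arrays, and their median was 0.20. CNN1, which encodes calponin, a protein of contractile smooth muscle, read 5.53, 5.70, 5.65 and 5.40 in the ductus and 5.16, 5.02, 4.99 and 4.79 in the aorta. The groups did not overlap, and the difference was 0.58 ± 0.20 (limma, adjusted p = 0.259). VIM, the mesenchymal filament gene, differed by 0.52 ± 0.19, likewise without overlap (limma, adjusted p = 0.283), and the myosin light chain gene MYL6 by 0.28 ± 0.19. Of 6 elastic and collagen matrix genes 0 passed. DCN, the small proteoglycan decorin, stood at 6.18 ± 0.13 in the ductus and 5.58 ± 0.24 in the aorta without overlap (0.60 ± 0.25, limma, adjusted p = 0.389). COL3A1, the type III collagen of arterial walls, read −0.35, −0.10, 0.33 and −3.11 against 1.23, 0.58, 1.27 and 0.91. Its difference of −1.81 ± 0.49 (limma, adjusted p = 0.113) became −1.04 without ductus replicate 4, and its 2 other probes lay on the same side. BGN and FBLN1, a proteoglycan and an elastic fibre protein gene, differed by −0.32 ± 0.18 and −0.56 ± 0.24.

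Of 13 genes of the provisional matrix and its turnover 0 passed in limma. HYAL2, a hyaluronidase gene, read −0.05, −0.22, −0.11 and −0.18 in the ductus and 0.15, 0.37, 0.40 and 0.44 in the aorta, a small difference without overlap (−0.48 ± 0.17, limma, adjusted p = 0.287). ITGAV, an integrin subunit gene, differed by −0.46 ± 0.24, also without overlap. Among 7 genes of nitric oxide and cGMP signalling, 0 of which passed, PRKG1, the cGMP-dependent kinase gene, differed by −0.84 ± 0.35 and ARG2, an arginase gene, by 0.86 ± 0.48.

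Of 10 measured genes of oxidative stress and cell survival 3 had arrays without overlap, all 3 below 0 (background 5.24% of probes), and 0 passed in limma. GSTA1, a glutathione transferase gene, differed by −1.46 ± 0.52 (limma, adjusted p = 0.279). BCL2, an inhibitor of apoptosis, read 0.88, 1.61, 1.14 and −2.32 against 2.23, 1.75, 1.82 and 1.61, and its difference of −1.53 ± 0.64 became −0.65 without ductus replicate 4, the array that also stood low for COL3A1.

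Among 35 growth factor and receptor genes 0 passed in limma, 13 lay above 0 and the median was −0.38, equal to that of all genes with a symbol. PGF, the placental growth factor gene, read −0.98, −1.76, −0.62 and −2.22 in the ductus and −4.32, −2.91, −2.49 and −2.53 in the aorta, without overlap (1.67 ± 0.65, limma, adjusted p = 0.325). IGFBP6, which binds insulin-like growth factors, stood at 4.34 ± 0.15 and 3.76 ± 0.13 (0.58 ± 0.19, limma, adjusted p = 0.234). The growth hormone receptor gene GHR differed by −0.96 ± 0.40, again without overlap. The 6 glycolytic genes had a median of 0.27 and 0 passed. LDHA, lactate dehydrogenase, differed by 0.79 ± 0.28 over 4 ductus and 3 aorta arrays, since 1 aorta spot was marked as an outlier, and GAPDH by 0.38 ± 0.26. The 19 ribosomal protein genes, which encode parts of the ribosome, lay between −0.37 and 0.16 with a median of −0.25, close to that of all probes. RPL14 read 6.38 to 6.70 in the ductus and 6.74 to 7.02 in the aorta, and RPL6 differed by −0.35 ± 0.17. Among 9 immediate early factor genes CREM, a cAMP-responsive repressor and activator, was the only member without overlap (0.53 ± 0.15, limma, adjusted p = 0.124), and just 1 of its 3 further probes shared that direction.

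**Figure D3:**
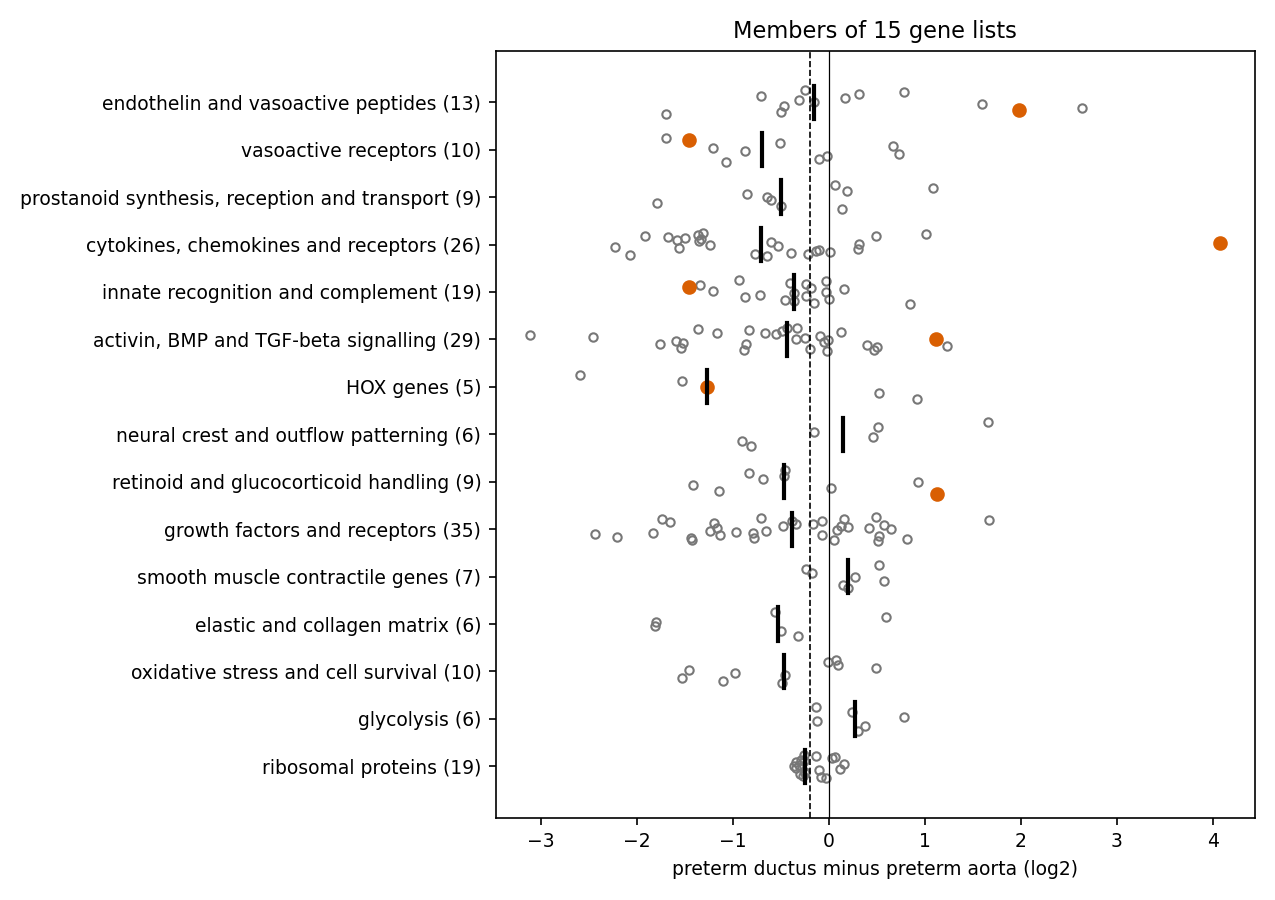
Preterm ductus minus preterm aorta (log2) on the x axis for the measured members of 15 gene lists, named on the y axis with the number measured. Filled orange points passed, open points did not, the black bar is the median of the list and the dashed line is the median of all probes at −0.20. The 7 filled points shown are EDN1, NPY1R, IL1A, TLR4, INHBA, HOXA7 and ALDH1A1.

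Beyond the 8 genes that passed, 20 genes had a difference of at least 1 unit without overlap of the arrays, 5 of them positive and 15 negative. For comparison 9.24% of the genes with a symbol had no overlap, 26 with the ductus above and 45 with it below. CLEC7A, a fungal glucan receptor gene of myeloid cells, read −4.68, −6.38, −5.14 and −4.33 in the ductus and −4.33, −3.38, −3.23 and −2.98 in the aorta, with nearly touching groups (−1.65 ± 0.65, limma, adjusted p = 0.333). CLMP, a cell adhesion gene, differed by −1.02 ± 0.41. PTHLH, the parathyroid hormone-related peptide gene, read −5.51, −5.07, −6.35 and −7.55 against −4.63, −4.74, −5.07 and −4.62 (−1.36 ± 0.56, limma, adjusted p = 0.362). GCG, the proglucagon gene, was well above background on 4 of 4 ductus and 0 of 4 aorta arrays and was at least 1.89-fold higher by its floor (limma, adjusted p = 0.31). F8, GRM2, NFAT5 and SLC1A1 met the same rule but were well above background on no preterm array, so no fold is given for them.

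**Figure D4:**
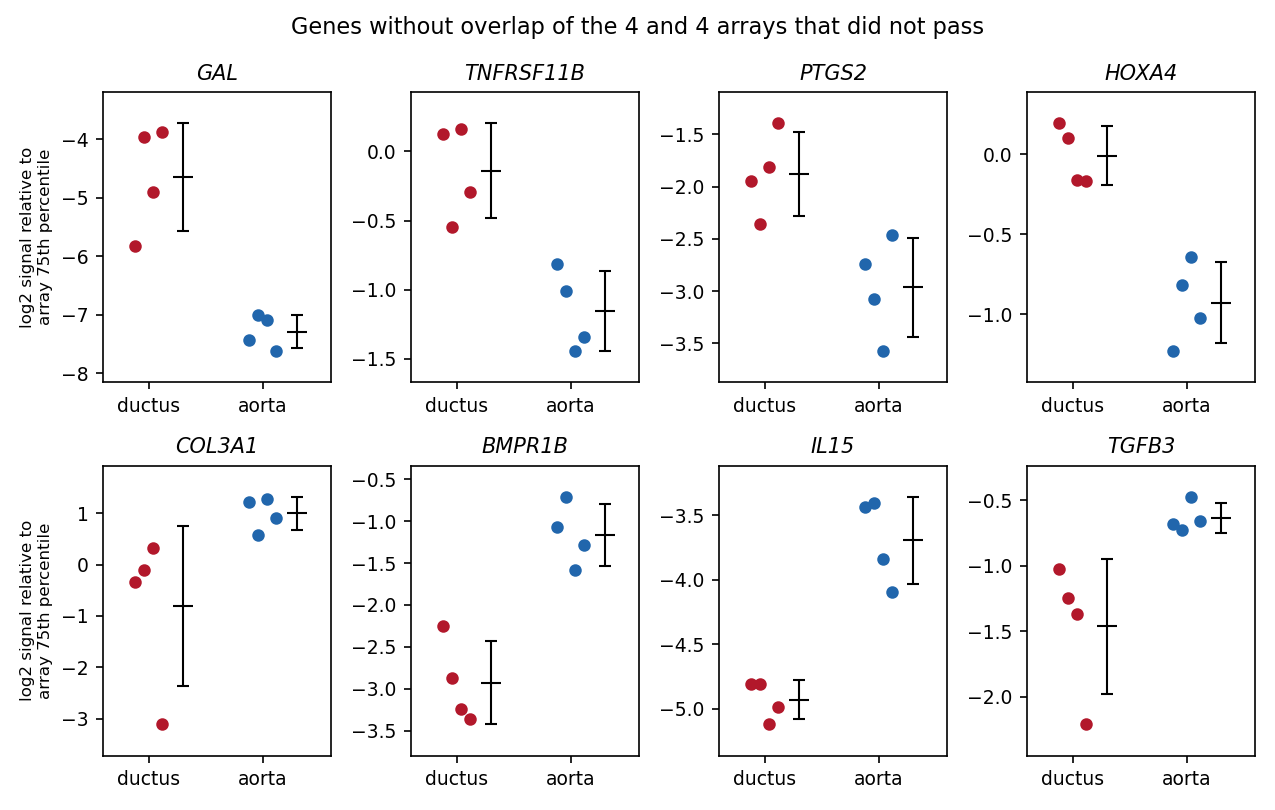
Values of 8 genes whose arrays did not overlap and that did not pass, with the log2 signal relative to the array's 75th percentile on the y axis. Each point is 1 array (red ductus, blue aorta, replicates 1 to 4 from left to right), the black bar is the mean with its SD, and the y axes differ between panels. Ductus replicate 4 lies far from the others for COL3A1, at −3.11.

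In detection, 20 of 15008 probes were well above background on all 4 ductus arrays and on 0 aorta arrays, and 0 probes showed the reverse. Of these 20, 7 carried a symbol (2 for GCG, 2 for WT1 and 1 each for FGF10, NRG1 and TFAP2A), and none of the 7 passed in limma, while 2 of the 13 without a symbol did. The FGF10 probe among them is not its brightest, which was well above background on 2 ductus and 4 aorta arrays. WT1, FGF10 and NRG1 are named here after their values were seen. With the detection call for a positive and significant signal, the counts were 15 and 6.

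The largest fitted differences were those of probes without a symbol. Probe A_70_P013006 read 2.46, −0.03, 2.26 and −0.04 in the ductus and −6.61, −4.81, −4.23 and −4.71 in the aorta, with a difference of 6.25 ± 0.74 (limma, adjusted p = 0.000202). Probe A_70_P000141 read 1.64, 1.09, −0.56 and 0.35 against −4.32, −5.40, −5.48 and −5.43, a difference of 5.78 ± 0.71 (limma, adjusted p = 0.000208), and 1 of its 4 aorta spots stood well above background, so that this size is set against background. On the other side, probe A_70_P019501 read −0.23, 0.62, 0.74 and −0.53 in the ductus and 2.52, 3.05, 2.83 and 2.00 in the aorta (−2.45 ± 0.39, limma, adjusted p = 0.00268). Probe A_70_P046786 read −2.61, −4.05, −1.99 and −2.79 against −0.89, −0.92, 0.11 and −0.64 (−2.27 ± 0.44, limma, adjusted p = 0.0128). The first 3 of these 4 probes passed again near term and at birth.

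The same contrast at the later stages rests on other arrays and other animals. Each stage lay on a slide of its own with the vessels in the same columns, so stage and slide cannot be told apart, and a column effect would recur at each stage. Near term 161 probes passed (1.15%), with 0.679% higher and 0.472% lower, and at birth 1416 did (10.1%), with 5.15% higher and 4.97% lower. The arrays did not overlap for 6.35% of probes near term and 20.1% at birth. Of the 99 preterm calls 98 had the same sign near term and 94 at birth, against 74.8% and 73.9% of all probes. Of the 72 higher calls 40 passed again near term and 47 at birth, of the 27 lower calls 15 and 19 did, 44 of the 99 passed at all 3 stages in the same direction, and 22 passed at the preterm stage alone. Passing at one stage and not another is no test of a difference between stages. The difference itself passed for 0 of 13997 probes between preterm and near term (limma), with 224 at an unadjusted p under 0.05. Between preterm and newborn 88 probes passed (0.629%), 18 with a larger and 70 with a smaller difference at the preterm stage. Only 4 of the 99 preterm calls were among them, all without a symbol and all higher in the preterm ductus.

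NPY1R differed by −1.95 ± 0.34 near term and −2.40 ± 0.34 at birth, and both passed (limma, adjusted p = 0.005 and 0.000131). HOXA7 differed by −0.69 ± 0.27 near term, where it did not pass, and by −1.41 ± 0.27 at birth, where it did (limma, adjusted p = 0.00257). BCAT1 differed by −0.32 ± 0.28 near term and −1.26 ± 0.28 at birth, of which the latter passed (limma, adjusted p = 0.00745). TLR4 differed by −0.81 ± 0.27 near term and −0.53 ± 0.27 at birth without passing at either stage. Its level was −3.96 ± 0.37 in the preterm and −2.33 ± 0.32 in the newborn ductus, and −2.51 ± 0.19 and −1.80 ± 0.24 in the aorta, and this change over time was not tested. For these 8 genes the change of the difference between stages did not pass, with adjusted p in limma of 0.11 or more.

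For 10 genes with a symbol the difference between the vessels changed between preterm and newborn, in each case toward the newborn ductus. SLC2A3, the glucose transporter GLUT3, read 2.63, 3.58, 2.55 and 2.38 in the preterm ductus and 2.61, 2.36, 2.01 and 1.90 in the preterm aorta. These groups overlapped, and the difference of 0.57 ± 0.29 was smaller than the newborn one by 3.71 ± 0.41 (limma, adjusted p = 8.04e-05 for that change). PTGS2, 1.08 at the preterm stage, was smaller by 3.28 ± 0.42 (limma, adjusted p = 0.000381). TIMP1, a protease inhibitor gene, was at 0.31 ± 0.19 and smaller by 1.91 ± 0.27 (limma, adjusted p = 0.00102). SOD2, the mitochondrial superoxide dismutase gene, was at 0.10 ± 0.28, and MCL1, a survival factor gene, at 0.49 ± 0.23. The secreted glycoprotein gene CHI3L1 differed by −0.36 ± 0.42 in the preterm vessels, the endothelial adhesion gene SELP by −0.32 ± 0.38, and PTX3, a pattern recognition protein gene, by −0.03 ± 0.29. NTN4, a netrin gene, read −1.79 to −1.06 in the preterm ductus and −0.89 to −0.69 in the preterm aorta without overlap (−0.57 ± 0.25, limma, adjusted p = 0.42), and differed by 1.14 ± 0.25 at birth. IL6, the remaining gene, was well above background on none of the 8 preterm arrays, so no size is given for it.

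**Figure D5:**
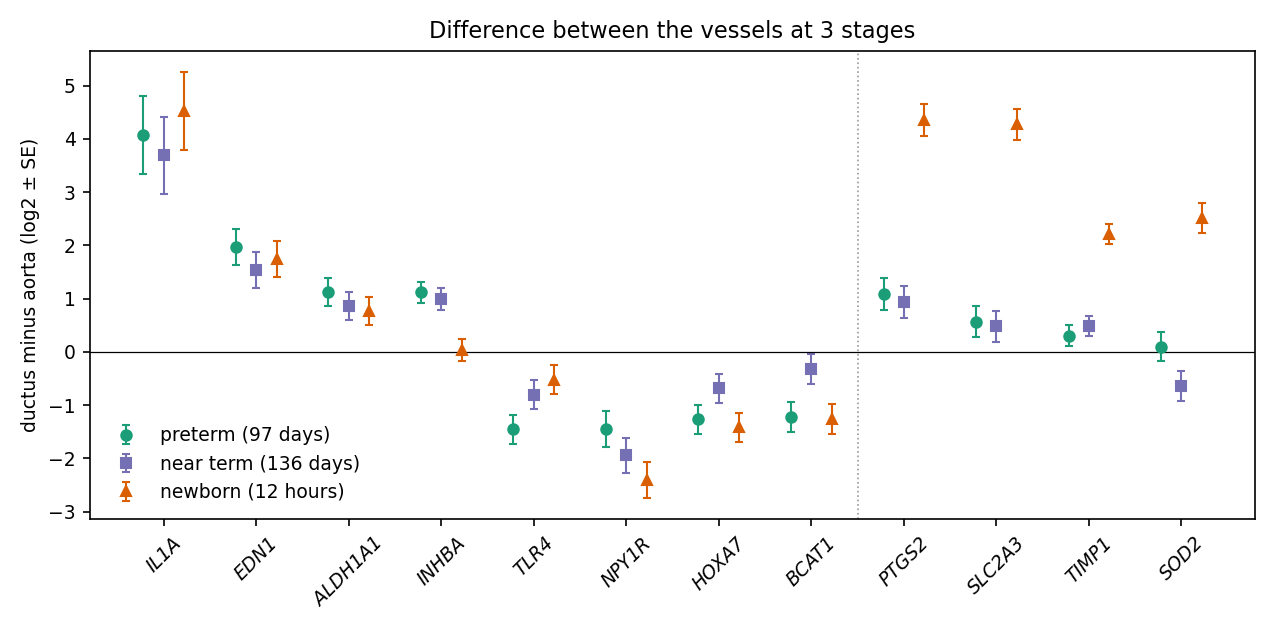
Ductus minus aorta (log2, y axis) for 12 genes at 3 stages, with bars for the SE of the fit over 4 arrays per vessel and stage. To the left of the dotted line are the 8 genes that passed at the preterm stage, to the right 4 genes whose difference changed between preterm and newborn, such as SLC2A3 from 0.57 to 4.28.

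Of 48 measured marker genes in 11 lists 0 passed in limma, and the smallest adjusted p was 0.113, for COL3A1 among the fibroblast markers. Smooth muscle markers were strong in both vessels, with both measured members (CNN1 and MYLK) well above background on all 8 arrays and a summed level of 5.52 to 6.48 in the ductus and 5.47 to 6.04 in the aorta. The summed level of 6 macrophage markers was −0.42 to 0.25 in the ductus and −0.45 to −0.07 in the aorta, and that of 6 lymphocyte markers −1.75 to −1.07 and −1.95 to −1.16. For 5 endothelial markers it was −0.17 to 0.15 and 0.14 to 0.61, for 4 mast cell markers 3.18 to 3.64 and 2.39 to 3.24, and for 5 fibroblast markers 6.13 to 6.48 and 5.53 to 6.08. The bright probes weigh most in such a sum. Among the fibroblast markers DCN and C3 lay above 0, while COL3A1, FBLN1 and COL1A1 lay below, and the median difference was −0.50. MYOD1 and ADRB3, markers of skeletal muscle and brown fat, were well above background on no preterm array. MYH7, the heart muscle marker measured, was so on 2 ductus and 4 aorta arrays. Fewer cells of a type and less RNA per cell cannot be told apart in these tissue pieces, and the part of cell makeup in the differences above was not tested.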

How the data were processed

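The deposited files give a linear intensity for each spot, namely the processed signal, and per the file headers the software was Feature Extraction 9.5.3.1 with protocol GE1-v5_95_Feb07. Control spots and outlier-flagged spots (8 to 124 per preterm array) were left out, log2 signals were set relative to the 75th percentile of the array, and probes well above background on at least 4 of 24 arrays (13997 of 15008) were tested. A single model with 6 group means was fitted to all 24 arrays with limma 3.58.1 under R 4.3.3, two-sided, and the script was tested on simulated data. Symbols for 1434 probes (806 genes) came from the array's names, RefSeq names of ARS-UI_Ramb_v3.0 and a table made by hand. A gene with several probes is given by its brightest. "At least" folds set the brighter mean against, per dim array, the higher of its own signal and the lowest signal that was well above background on that array. No probe sequence was used here.

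The comparison, lists and rules were chosen with earlier results of these data known. Named were all called genes, a panel, of each list up to 4 others by smallest p, genes without overlap at 1 unit or more, genes whose difference changed between stages, and 2 unnamed probes in each direction. Not every gene the rule names is reported here. The labels do not say whether same-numbered arrays share an animal, so the numbers were not taken as pairs. Same-numbered ductus and aorta arrays correlated at −0.59, −0.34, −0.25 and 0.48 in their deviations, which cannot decide this, since the deviations also went with the spike-in limit. Aorta replicate 1 correlated at 0.64 and 0.59 with ductus replicates 2 and 3, the other preterm arrays of a low limit. Alternatives covered background, scaling, filters, flags, blocks, array weights, spike-in limit and each array left out. The number of arrays limits precision, and p-values measure the spread between samples.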

Additional observations from a re-analysis of the deposited data

Results flagged for a closer look

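Of 151 groups of 4 preterm arrays checked for the genes described, 5 held an array far from the other 3, against 7.55 by chance. Preterm aorta replicate 1 was that array in 4 of them: IL1A at −7.21 against −4.99 to −4.58, EDNRB at −7.21 against −4.63 to −4.16, NTN4 at −0.69 against −0.89 to −0.87, and RPL6 at 7.87 against 7.31 to 7.37. This array had a spike-in limit of 0.884, and the other preterm aorta arrays 1.85 to 2.11. The last was preterm ductus replicate 1 for EDNRB, at −4.02 against −4.67 to −4.63. The low values of ductus replicate 4 for COL3A1 and BCL2, described above, were not among these 5.

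For 9 of the genes described the difference between the vessels changed between the preterm and the newborn stage by an interaction test in limma. The change, preterm minus newborn, was −3.71 ± 0.41 for SLC2A3 (adjusted p = 8.04e-05), −3.31 ± 0.59 for CHI3L1 (0.00914), −3.28 ± 0.42 for PTGS2 (0.000381), −3.00 ± 0.54 for SELP (0.00939) and −2.42 ± 0.39 for SOD2 (0.00374). It was −1.91 ± 0.27 for TIMP1 (adjusted p in limma 0.00102), −1.79 ± 0.41 for PTX3 (0.0481), −1.71 ± 0.36 for NTN4 (0.0298) and −1.69 ± 0.32 for MCL1 (0.018). Each difference was larger in the newborn vessels.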

How the results depend on the processing

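The 99 preterm calls became 54 with normexp, 58 with median centring, 33 in a fit of only the 8 preterm arrays, 2146 with array weights (284 higher, 1862 lower), 378 (65 higher, 313 lower) and 12 in fits of the arrays with a spike-in limit under and above 1.5 (the latter chosen after seeing the data), and 52 to 85 with 1 preterm array left out. With the replicate number as a block the preterm calls were 185, or 213 as a random block, although the labels do not say whether the numbers pair the samples. HOXA7, ALDH1A1 and BCAT1 missed the threshold with the block. Near-term calls (161) were 51 with normexp and 263 with the replicate block, and newborn calls (1416) were 851 with normexp. The 88 probes whose difference changed from preterm to newborn became 58 with normexp, 137 among probes detected on all 24 arrays and 137 with the replicate block. Calls summed over the gene lists fell from 8 to 3 with normexp. All other counts stayed within 1.5 times. No count is given for the fit under the spike-in limit, where aorta replicate 1 was the only preterm aorta array. The difference between preterm and near term gave 0 calls in limma under the 4 alternatives run for it (normexp, quantile normalisation, probes detected on all arrays, replicate block), with 224 at an unadjusted p under 0.05.

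Of 76 genes described 63 kept their sign under all alternatives run, among them all 8 that passed. AGTR1 turned to 0.15 with median centring, 0.20 above the limit, and ranged from −0.13 to 0.15 with arrays left out. PTX3 turned to 0.061 with normexp, 0.24 with quantile normalisation, 0.15 with median centring, 0.11 with the limit as covariate, 0.22 under the limit, and ranged from −0.15 to 0.12 with arrays left out. PTGER4 turned to 0.31 with the covariate and 1.09 under the limit, and HIF1A to 0.051 and TIMP1 to −0.062 under the limit. Above it VEGFA turned to −0.15 and SOD2 to −0.077. All values under the limit rest on aorta replicate 1 alone for the preterm aorta. SLCO2A1 turned to −0.15 with array weights, −0.032 above the limit and −0.15 without aorta replicate 1, up to 0.17 with other arrays left out. TGFB1 turned to −0.053 with normexp and −0.035 with array weights, and ranged from −0.0057 to 0.25 with arrays left out. EDNRB turned to −0.020 without aorta replicate 1, up to 1.00 with others left out, and SELP to 0.15 with quantile normalisation. With the mean over the probes of the gene CREM turned to −0.12, PTGS2 to −0.083, SELP to 0.015 and SOD2 to −0.10. The causes were not tested. Of the 68 genes described that did not pass, some passed under an alternative, mostly with array weights. Signal near background limits GAL, TFAP2A, GCG, HOXC9, CSF3 and FASN.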
